A study of Rattus norvegicus with 9 samples.

Results

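Macrophage and myeloid identity genes were examined in lung fibroblast preparations of the rat across septation, when new walls grow into the airspaces of the young lung and divide them into alveoli. The list held 37 genes. A gene was represented by the probe sets whose only symbol in the platform annotation was that gene, and the brightest over the 9 arrays stood for it. Of the 37 genes, 32 were measured in this way, out of 14217 genes named by a single symbol on the array. The other 5 (Msr1, Marco, Spi1, Slc11a1 and Vsig4) had no probe set named for them in the annotation used here and were not analysed. Expression was measured on single-colour Affymetrix arrays in 3 samples from each of postnatal days 2, 7 and 21. Day 2 lay in the saccular stage before septation, day 7 while septation was progressing and day 21 after it had ended. A sample held the pooled cells of a single litter, from 5 pups at day 2 and from 4 at each later age. The rats were untreated as far as the labels say, and the sources used here give no strain or sex. Lung cells were dispersed with trypsin and collagenase and left on plastic for 45 min, and what adhered was scraped off and frozen without further culture or sorting. The labels call these cells fibroblasts.

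Macrophages of the lung come in alveolar and interstitial populations, and like fibroblasts they adhere to plastic. Their identity rests on the transcription factor PU.1 (encoded by Spi1) and on the receptor for the growth factor CSF1. They recognise coated and altered particles through Fc, lectin and scavenger receptors, many of which signal through the adaptors encoded by Tyrobp and Fcer1g. These adaptors carry the tyrosine-based activation motif, ITAM, that recruits the kinase SYK.

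Most of the 32 genes were called lower at day 7 than at day 2, higher at day 21 than at day 7, or both, and fewer were called above day 2 at day 21. Of the 32, 20 fell from day 2 to day 7 and 0 rose, and 28 rose from day 7 to day 21 and 0 fell. At day 21, 12 stood higher than at day 2 and 0 lower. Calls are those of limma at a Benjamini-Hochberg adjusted p under 0.05 over all probe sets. Over all 31042 probe sets, 5.5% were called higher and 3.44% lower at day 7 than at day 2 (8.94% in all). At day 21 against day 7, 11% were called higher and 19.1% lower (30.1% in all), and at day 21 against day 2, 6.82% higher and 12.2% lower (19% in all). The median log2 difference of the 32 genes was -1.21 for day 7 against day 2, 1.95 for day 21 against day 7 and 0.65 for day 21 against day 2. Over all probe sets these medians were 0.05, 0.02 and 0.03. In the day 7 and day 2 samples the arrays did not overlap for 25 genes, all lower at day 7, where 10.6% of all probe sets were lower and 16.5% higher without overlap. Day 21 lay above day 7 without overlap for 29 genes (18% of all probe sets higher, 24.5% lower) and above day 2 for 20 (16.6% higher, 19.9% lower). Bulk arrays cannot tell fewer macrophages from less RNA per macrophage, and this holds for every level below.

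**Figure D1:**
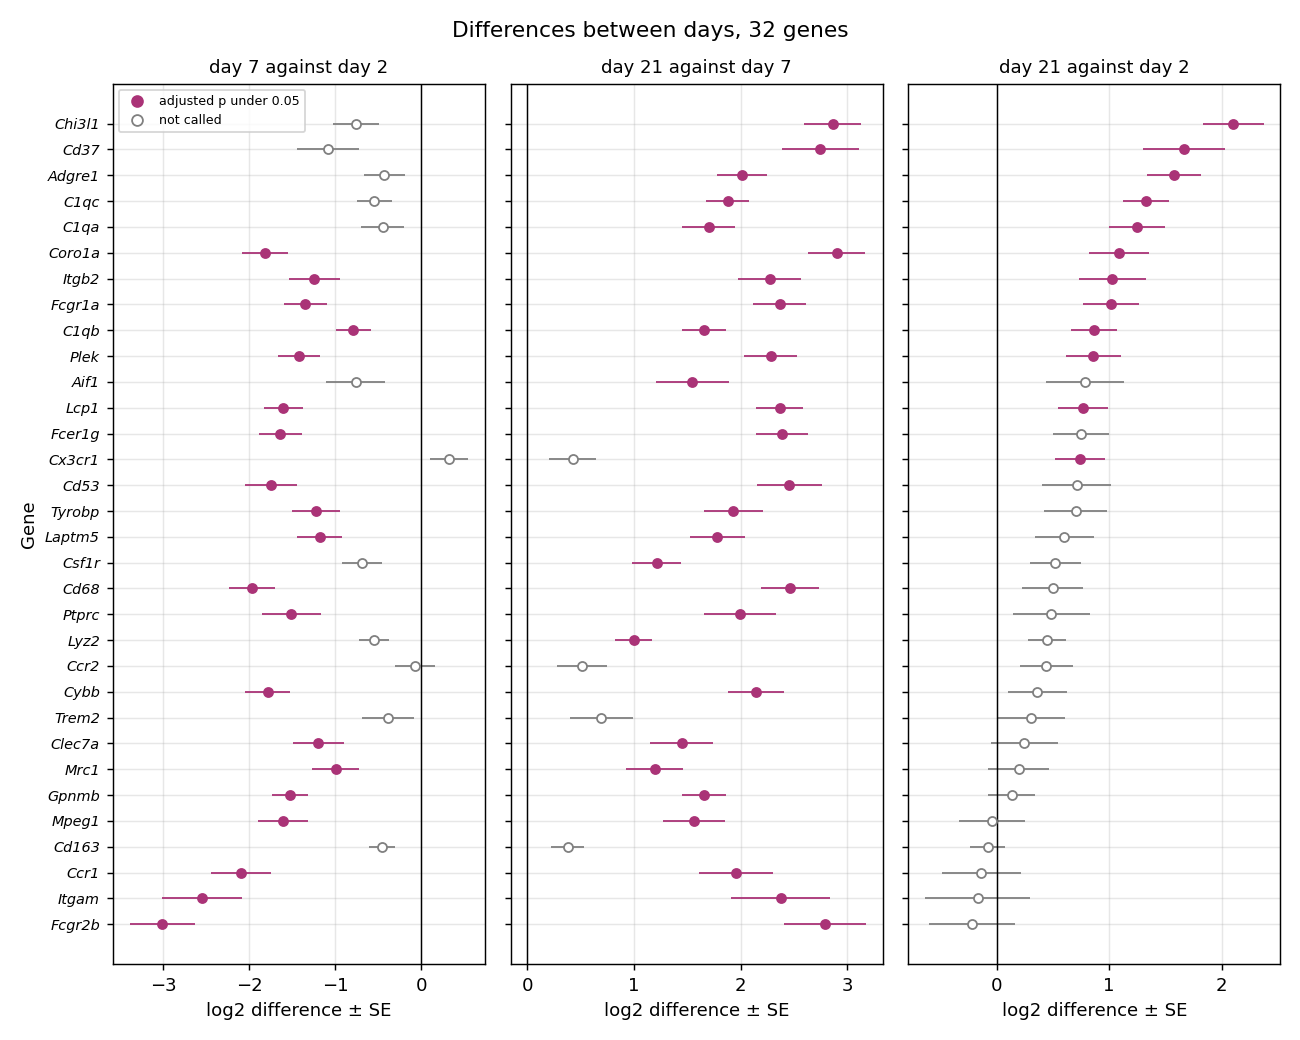
Log2 differences between days (x axis, with the SE from limma) for the 32 measured genes, ordered by the difference between days 21 and 2; filled points passed an adjusted p under 0.05. From day 2 to day 7, 20 genes lie to the left of 0 as filled points, from day 7 to day 21 28 lie to the right, and in the right panel 12 do.

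The mean log2 level of the 32 genes per array was lowest at day 7 and highest at day 21. It was 8.69, 8.85 and 8.95 on day 2 replicates 1, 2 and 3, then 7.87, 7.95 and 7.09 at day 7, and 9.41, 9.29 and 9.74 at day 21. The groups did not overlap, and day 7 replicate 3 lay well below the other day 7 arrays. On that array the beta-actin control was also the most uneven along the transcript, with a log2 difference between its 3' and 5' probe sets of 1.18 against 0.49 to 0.93 on the other arrays, and the part of this in the result was not tested. The 24 fibroblast markers, among them the collagens Col1a1 and Col3a1 and the growth factor receptor Pdgfra, averaged log2 10.59, 10.56 and 10.63 on the day 7 arrays. They averaged 10.18 to 10.50 at day 2 and 9.80 to 10.21 at day 21. Of these markers 3 rose (12.5%, against 5.5% of all probe sets) and 0 fell from day 2 to day 7. From day 7 to day 21, 3 rose (12.5%, against 11%) and 9 fell (37.5%, against 19.1%). Abundant fibroblast transcripts thus stood beside the myeloid ones on every array. The arrays' median probe set intensity was 37.9 to 50.4.

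Promoter sequences were set beside these levels because PU.1 binds purine-rich sites near the starts of many myeloid genes. RefSeq promoter windows (build GRCr8) were found for 23 of the 32 genes, and the 250 bases before the start were searched on both strands. The letters GAGGAA, the core of the PU.1 site, occurred in 15 of the 23 (65.2%), against 23.3% of all 33469 promoter entries. The overlapping letters GGAAGT occurred in 9 of 23 (39.1%, against 19.2%), and GAGGAAGT, which holds both, in 2 of 23 (8.7%, against 2.04%). The AP-1 letters TGANTCA occurred in 3 of 23 (13%, against 6.34%). The C/EBP letters TTGCGNAA (0.729% of all entries) and the E-box CACGTG (5.59%) occurred in 0 of 23. By course, GAGGAA was present in 10 of the 13 promoters of genes that fell to day 7 and in 5 of the 10 of genes not called there. These counts describe letters in a window, without a test, and the motifs were chosen with the expression values known. The genes were listed for myeloid identity, and whether the letters bear on the differences between days was not tested. In the examples, GAGGAA or its complement is in capitals, and each line runs 5' to 3' on the gene's strand and ends at the base before the start.
Cd53: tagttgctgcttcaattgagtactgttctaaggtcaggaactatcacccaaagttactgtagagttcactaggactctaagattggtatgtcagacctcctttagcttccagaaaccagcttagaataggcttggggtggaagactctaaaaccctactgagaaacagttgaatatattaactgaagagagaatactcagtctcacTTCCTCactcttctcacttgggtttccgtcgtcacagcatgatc
Cd68: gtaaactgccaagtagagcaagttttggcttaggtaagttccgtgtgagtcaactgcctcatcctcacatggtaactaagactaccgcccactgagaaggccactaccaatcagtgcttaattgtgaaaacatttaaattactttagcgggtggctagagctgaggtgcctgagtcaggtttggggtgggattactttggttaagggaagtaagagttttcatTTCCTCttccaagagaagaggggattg
Ccr1: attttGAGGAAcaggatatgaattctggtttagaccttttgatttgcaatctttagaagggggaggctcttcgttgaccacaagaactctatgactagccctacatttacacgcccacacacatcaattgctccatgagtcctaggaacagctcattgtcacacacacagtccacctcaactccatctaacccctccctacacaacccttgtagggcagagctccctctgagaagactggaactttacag
C1qb: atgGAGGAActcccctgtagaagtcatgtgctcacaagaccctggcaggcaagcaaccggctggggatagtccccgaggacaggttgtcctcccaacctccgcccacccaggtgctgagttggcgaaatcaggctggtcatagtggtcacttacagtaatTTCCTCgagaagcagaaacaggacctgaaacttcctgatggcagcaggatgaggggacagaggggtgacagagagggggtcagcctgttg
Adgre1: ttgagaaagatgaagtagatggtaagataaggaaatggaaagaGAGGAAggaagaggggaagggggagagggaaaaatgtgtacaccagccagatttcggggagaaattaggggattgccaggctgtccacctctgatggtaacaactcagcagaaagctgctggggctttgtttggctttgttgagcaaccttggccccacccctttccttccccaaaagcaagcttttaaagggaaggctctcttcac
Chi3l1: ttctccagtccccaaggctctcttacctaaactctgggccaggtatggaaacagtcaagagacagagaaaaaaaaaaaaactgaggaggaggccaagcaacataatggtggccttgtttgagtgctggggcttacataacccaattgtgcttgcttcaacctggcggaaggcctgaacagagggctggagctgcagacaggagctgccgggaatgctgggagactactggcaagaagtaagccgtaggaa
Cd53 (GRCr8 chr2:197087897-197088146, minus strand), Cd68 (chr10:54882442-54882691, minus strand) and Ccr1 (chr8:132439267-132439516, minus strand) stand for genes that fell and rose with no called difference between days 2 and 21. C1qb (chr5:154407828-154408077, minus strand) stands for genes that fell and ended above day 2. Adgre1 (chr9:2329190-2329439, plus strand) and Chi3l1 (chr13:48193589-48193838, plus strand) stand for genes called only at day 21, Chi3l1 without the letters. The capitals in Cd53 and Cd68 begin 44 and 27 bases before the start, and in Ccr1 and Adgre1 they begin 245 and 207 bases before it.

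Among the growth factor and chemokine receptors, Ccr1 alone was called both lower at day 7 and higher again at day 21. Csf1r (probe set 1388784_at), the receptor through which CSF1 keeps macrophages alive, measured log2 9.36, 9.27 and 9.03 at day 2, 8.88, 8.76 and 7.94 at day 7, and 9.91, 9.57 and 9.74 at day 21. The days did not overlap, but the difference between days 2 and 7 was not called (log2 difference -0.69 with an SE of 0.23, 3 arrays on each day, adjusted p = 0.0915 by limma), while the rise to day 21 was (1.21 ± 0.23, adjusted p = 0.00158). The difference at day 7 was called with arrays centred on their medians (adjusted p = 0.0321), and it was -0.40 without day 7 replicate 3. Ccr1 (1370083_at), a receptor for inflammatory CC chemokines, measured 10.05, 10.22 and 9.92, then 8.36, 8.33 and 7.23, then 10.25, 9.13 and 10.41. It fell 4.27-fold to day 7 (-2.09 ± 0.35, adjusted p = 0.00444) and rose 3.89-fold to day 21 (1.96 ± 0.35, adjusted p = 0.00106). Its day 21 replicate 2 lay apart from the other day 21 arrays, and days 2 and 21 overlapped.

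Ccr2, which draws monocytes from the blood, was near the low end of the array on every day. Its values were log2 4.07 to 4.27 at day 2, 3.61 to 4.37 at day 7 and 4.26 to 5.04 at day 21, where the 25th percentile of all values was 4.25. Cx3cr1, the fractalkine receptor of monocytes and interstitial macrophages, was at 4.62 to 4.95, 4.52 to 5.40 and 5.30 to 5.59. No call was made for Ccr2 in the 3 comparisons, and Cx3cr1 was called only between days 2 and 21 (0.74 ± 0.22, adjusted p = 0.036). Between days 7 and 21, Cx3cr1 was called higher with a further quantile normalization (adjusted p = 0.0169) and with arrays centred on their medians (0.0445), and Ccr2 with the centring (0.0369). Without day 7 replicate 3 the difference at day 7 was 0.59 for Cx3cr1 and 0.16 for Ccr2, against 0.32 and -0.07 with all arrays. A p that missed the threshold does not show that either was steady.

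Of the 6 Fc receptors, ITAM adaptors and their partners, 5 fell to day 7 and 5 rose to day 21. Fcgr2b (1371079_at), the inhibitory receptor for immunoglobulin G, fell 8.04-fold (-3.01 ± 0.38, adjusted p = 0.00136), the largest measured difference among the 32 genes at day 7, where that of Itgam was limited by its level near the low end of the array. Its arrays measured 8.85, 9.56 and 9.97 at day 2, 6.72, 7.16 and 5.49 at day 7, and 8.97, 9.31 and 9.46 at day 21. Day 21 lay within the range of day 2, and the difference between them was -0.21 ± 0.38 (adjusted p = 0.737). Fcgr1a (1393038_at), the high-affinity activating receptor, measured 7.81, 8.14 and 8.19, then 6.83, 7.18 and 6.07, then 8.95, 8.95 and 9.29. It fell 2.55-fold (-1.35 ± 0.25, adjusted p = 0.00692), rose 5.17-fold and ended 2.03-fold above day 2 (1.02 ± 0.25, adjusted p = 0.0143). The arrays of all 3 days were separate for Fcgr1a, unlike those of Fcgr2b.

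Both adaptors moved with the receptors. Fcer1g (1373575_at), the common chain of activating Fc receptors, measured 10.84, 11.16 and 11.46 at day 2, 9.67, 9.92 and 8.96 at day 7, and 11.81, 11.75 and 12.15 at day 21 (fall -1.64 ± 0.25, adjusted p = 0.00312, rise 2.39 ± 0.25, adjusted p = 2.18e-05). Tyrobp (1374730_at), which serves Trem2 and other receptors, fell 2.34-fold (-1.23 ± 0.28, adjusted p = 0.0181) and rose 3.82-fold (1.93 ± 0.28, adjusted p = 0.000229). Their day 21 arrays all lay above day 2, by 0.75 ± 0.25 and 0.70 ± 0.28, and neither difference was called (adjusted p = 0.0539 and 0.101). Both were called when only those days were fitted (adjusted p = 0.0254 for Fcer1g and 0.0211 for Tyrobp). Fcer1g was also called with arrays centred on their medians (0.0358), with the dimmer probe sets left out (0.0384) and with trended robust variances (0.036). Clec7a, the lectin receptor for fungal glucans, fell 2.3-fold and rose 2.73-fold. Trem2, a lipid-sensing receptor, was the exception, at 5.48 to 6.36, 5.07 to 5.84 and 5.73 to 6.72, with overlap between all days and no call. A second, dimmer probe set of Trem2 was called higher at day 21 than at day 7 (0.86, adjusted p = 0.0297). The brighter probe set was called in that comparison with a further quantile normalization (adjusted p = 0.0209) and with arrays centred on their medians (0.0199).

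All 6 leukocyte integrins and pan-leukocyte membrane proteins rose from day 7 to day 21, and 5 had fallen before. Itgam (1388046_at), the alpha chain of complement receptor 3 on macrophages and neutrophils, measured 6.29, 6.27 and 7.94 at day 2, 4.11, 4.33 and 4.43 at day 7, and 5.79, 6.63 and 7.58 at day 21. Its measured fall was -2.55 ± 0.47 (adjusted p = 0.00657), to a level around the 25th percentile of all values (4.25), so no fold is given, and its days 2 and 21 overlapped widely. Itgb2 (1383131_at), the beta chain shared by leukocyte integrins, measured 9.84, 10.24 and 10.02, then 9.37, 9.05 and 7.95, then 11.13, 10.87 and 11.20. Unlike Itgam it ended above day 2 (1.03 ± 0.30, adjusted p = 0.0308). Its fall to day 7 was -1.24 ± 0.30 (adjusted p = 0.023), and -0.82 without day 7 replicate 3. Ptprc, the phosphatase CD45 of all leukocytes, fell 2.85-fold (-1.51 ± 0.34, adjusted p = 0.0174) and rose 4.00-fold. Its day 7 arrays were the most spread of its course, at 8.88, 8.45 and 7.16.

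Cd53 and Cd37 are tetraspanins of leukocyte membranes. Cd53 (1368518_at) measured 10.39, 10.70 and 10.52 at day 2, 9.29, 9.15 and 7.92 at day 7, and 11.19, 11.01 and 11.54 at day 21 (fall -1.75 ± 0.30, adjusted p = 0.00525). Its day 21 arrays all lay above day 2, a difference of 0.71 ± 0.30 that was not called (adjusted p = 0.128). That difference was called when only those days were fitted (adjusted p = 0.0233) and without day 7 replicate 3 (0.0137). Cd37 (1368555_at) measured 5.71, 5.37 and 6.77, then 5.29, 5.10 and 4.20, then 7.39, 7.40 and 8.06. Its difference at day 7 was -1.09 ± 0.36 and not called (adjusted p = 0.0933). Cd37 rose 6.73-fold (2.75 ± 0.36, adjusted p = 0.000124) and ended 3.17-fold above day 2 (1.66 ± 0.36, adjusted p = 0.00807). The fold of the rise is limited by day 7 replicate 3, which lay near the 25th percentile of all values (4.25). Cd37 was called lower at day 7 with a further quantile normalization (adjusted p = 0.0452) and with arrays centred on their medians (adjusted p = 0.0246). The difference at day 7 was -0.68 without day 2 replicate 3. Laptm5, a lysosomal membrane protein of blood cells, fell 2.26-fold and rose 3.44-fold, and its second probe set fell by 1.67 and rose by 2.48.

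The 4 genes of the haematopoietic cytoskeleton rose to day 21, and 3 of them both fell first and ended above day 2. Coro1a (1369964_at), an actin regulator of leukocytes, had the largest rise of the 32 genes, 7.48-fold (2.90 ± 0.27, adjusted p = 9.85e-06). Its arrays measured 9.54, 9.72 and 10.43, then 8.24, 8.43 and 7.58, then 10.91, 10.79 and 11.27. Lcp1, the actin-bundling L-plastin, fell 3.04-fold (-1.60 ± 0.22, adjusted p = 0.00192) and rose 5.16-fold (2.37 ± 0.22, adjusted p = 1.08e-05). Plek, a substrate of protein kinase C, fell 2.68-fold and rose 4.86-fold. Net differences from day 2 to day 21 were 1.09 ± 0.27 for Coro1a, 0.86 ± 0.24 for Plek and 0.77 ± 0.22 for Lcp1 (adjusted p = 0.0147, 0.0292 and 0.0315). With the litter number as a replicate block the call for Lcp1 was lost (adjusted p = 0.0516). Aif1, the calcium-binding protein IBA1, measured 7.72 to 8.55, 6.74 to 8.18 and 8.66 to 9.49, and only its rise to day 21 was called (1.55 ± 0.35, adjusted p = 0.00461). A dimmer probe set of Aif1 stayed between 4.46 and 5.16 on all arrays.

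**Figure D2:**
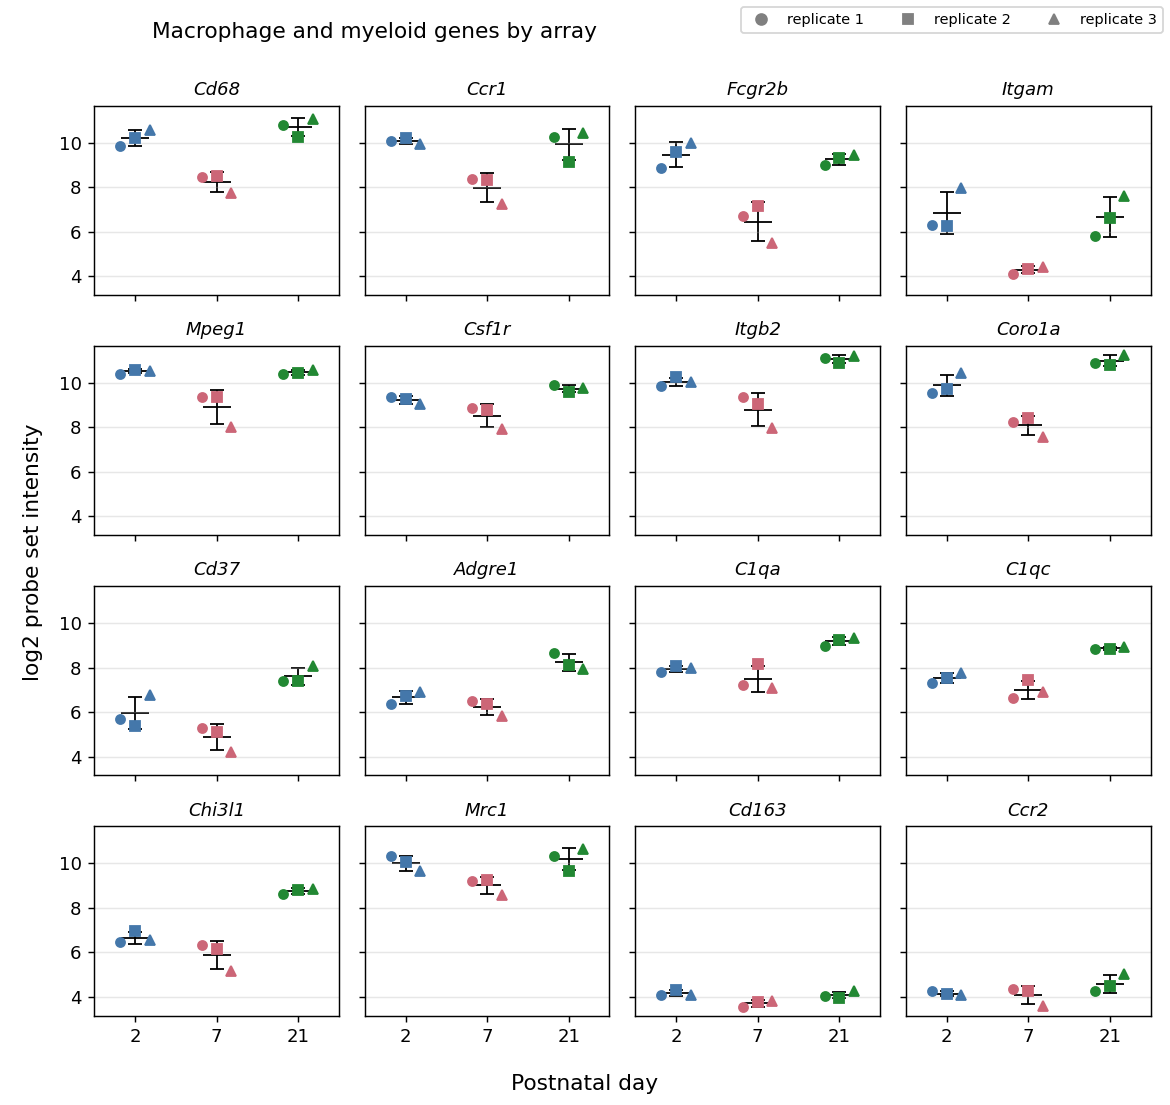
Log2 probe set intensity (y axis) of 16 of the genes on each array by postnatal day; points are arrays, marked by replicate, and lines are the day mean ± SD (n = 3). The top row and Mpeg1 return at day 21 to about their day 2 range, Adgre1, C1qa, C1qc and Chi3l1 end above it, and Cd163 and Ccr2 stay near the low end at log2 4.25.

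The scavenger and adhesion-type receptors split into bright genes that fell and returned, and others. Cd68 (1375010_at), a glycoprotein of macrophage lysosomes, measured 9.82, 10.21 and 10.56 at day 2, 8.48, 8.51 and 7.72 at day 7, and 10.79, 10.26 and 11.04 at day 21. It fell 3.91-fold (-1.97 ± 0.27, adjusted p = 0.00189) and rose 5.52-fold (2.46 ± 0.27, adjusted p = 3.32e-05), with days 2 and 21 overlapping. Gpnmb, a glycoprotein of lipid-laden macrophages, fell 2.87-fold and rose 3.15-fold, and its net difference was 0.13 ± 0.21 (adjusted p = 0.696). Mrc1, the mannose receptor, fell by 1.00 ± 0.27 (adjusted p = 0.0413) and rose by 1.19 ± 0.27 (adjusted p = 0.00502). Its fall missed the threshold when any of 6 of the 9 arrays was left out, with values there of -1.12 to -0.78, and with the litter number as a replicate block (adjusted p = 0.0521).

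Adgre1 (1381311_at), the gene of the F4/80 antigen of mature macrophages, measured 6.34, 6.72 and 6.91 at day 2, 6.49, 6.35 and 5.84 at day 7, and 8.67, 8.12 and 7.93 at day 21. Its early days overlapped (-0.43 ± 0.24, adjusted p = 0.333), and all day 21 arrays lay above both (4.04-fold above day 7, and 2.99-fold above day 2 at an adjusted p = 0.000891). Cd163, the haemoglobin scavenger receptor of tissue macrophages, measured 4.07 to 4.33 at day 2, 3.54 to 3.81 at day 7 and 3.96 to 4.26 at day 21, around the 25th percentile of all values. Its day 7 arrays lay below the others without overlap, but no comparison was called (day 7 against day 2, -0.46 ± 0.15, adjusted p = 0.0959).

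The 3 chains of complement C1q, which macrophages secrete to open the classical complement pathway, were all called higher at day 21 than on either earlier day, and C1qb alone was called lower at day 7. C1qa (1376652_at) measured 7.78, 8.07 and 7.96 at day 2, 7.21, 8.16 and 7.09 at day 7, and 8.99, 9.25 and 9.34 at day 21. C1qb (1370215_at) measured 8.20, 8.48 and 8.40, then 7.51, 8.04 and 7.16, then 9.09, 9.24 and 9.35. C1qc (1373025_at) measured 7.31, 7.52 and 7.77, then 6.65, 7.42 and 6.89, then 8.83, 8.82 and 8.94. The difference at day 7 was -0.79 ± 0.21 for C1qb (adjusted p = 0.0362), against -0.45 ± 0.25 for C1qa and -0.55 ± 0.20 for C1qc. The call for C1qb was lost with 6 of the 9 single-array omissions (values there of -0.87 to -0.58) and when only the arrays of days 2 and 7 were fitted (adjusted p = 0.0647). Without day 7 replicate 2, where all 3 chains were brightest for that day, C1qa and C1qc were called lower too, at -0.79 and -0.77.

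All 3 chains rose from day 7 to day 21, by 1.70 ± 0.25, 1.66 ± 0.21 and 1.88 ± 0.20 for C1qa, C1qb and C1qc. They ended 2.38-fold, 1.82-fold and 2.51-fold above day 2 (adjusted p = 0.00485, 0.013 and 0.000952). Their day 21 arrays lay close together, with an SD of 0.06 to 0.18. Whether their difference at day 7 departed from that of genes such as Cd68 was not tested.

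Among the 4 killing and secreted effectors, Mpeg1 and Cybb fell and returned while Chi3l1 gained. Mpeg1, the pore-forming perforin-2, fell 3.04-fold (-1.61 ± 0.29, adjusted p = 0.0067) and returned to 10.40 to 10.59 from a day 2 range of 10.41 to 10.58. Cybb, the catalytic subunit of the phagocyte oxidase, fell 3.44-fold (-1.78 ± 0.26, adjusted p = 0.00258) and rose 4.42-fold, and the second probe sets of Mpeg1 and Cybb were called in the same directions. Lyz2, macrophage lysozyme, measured 12.78 to 12.97, 12.05 to 12.50 and 13.14 to 13.50, with no overlap. Its difference at day 7, -0.55 ± 0.17, was not called (adjusted p = 0.07), but it was with the dimmer probe sets left out (0.0427) and with trended robust variances (0.0119). Its rise of 1.00 ± 0.17 was called (adjusted p = 0.000783).

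Chi3l1 (1392171_at), a secreted chitinase-like protein, measured 6.46, 6.95 and 6.55 at day 2, 6.35, 6.16 and 5.16 at day 7, and 8.62, 8.78 and 8.86 at day 21. It had the largest net gain of the 32 genes, 4.3-fold above day 2 (2.10 ± 0.27, adjusted p = 0.000301), and stood 7.29-fold above day 7 (2.87 ± 0.27, adjusted p = 1.13e-05). The difference at day 7 was -0.76 ± 0.27 (adjusted p = 0.112) and was called with arrays centred on their medians (adjusted p = 0.0387). It was -0.40 without day 7 replicate 3.

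Sorted by calls, 14 genes fell, rose and stood at no called difference between days 2 and 21. They were Ccr1, Cd53, Cd68, Clec7a, Cybb, Fcer1g, Fcgr2b, Gpnmb, Itgam, Laptm5, Mpeg1, Mrc1, Ptprc and Tyrobp. For Cd53, Fcer1g, Laptm5, Ptprc and Tyrobp all day 21 arrays lay above day 2, by 0.49 (Ptprc) to 0.75 (Fcer1g). For the rest of the 14 these days overlapped. Another 6 fell, rose and ended above day 2 (C1qb, Coro1a, Fcgr1a, Itgb2, Lcp1 and Plek). A further 5 were called only for the rise to day 21 and the gain over day 2 (Adgre1, C1qa, C1qc, Cd37 and Chi3l1), and 3 only for the rise (Aif1, Csf1r and Lyz2). Cx3cr1 was called only over day 2, and Ccr2, Cd163 and Trem2 in no comparison on the values as deposited. The count over day 2 varied over single-array omissions more than the others did. It was 12 with all arrays, 7 without day 2 replicate 1 or without day 2 replicate 2, and 6 without day 21 replicate 3. Over all probe sets the calls above day 2 dropped too, from 2118 to 1661, 1186 and 1501 in these fits. The count of falls to day 7 was 13 without day 2 replicate 2, against 20. Over all probe sets that count was 673, against 1068. How far having fewer arrays lowered these counts by itself was not tested. Single-array omissions ended the call of a fall for Mrc1 and C1qb (6 of 9 omissions each), Clec7a (5), Itgb2, Ptprc and Tyrobp (2 each) and Laptm5 (1). They ended the call over day 2 for Itgb2 (6), Cx3cr1, Lcp1 and Plek (4 each), Coro1a (3) and Fcgr1a (2). The 9 omissions ended no other call in either comparison, and none of the 28 calls of a rise from day 7 to day 21.

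Within a day the genes also moved together, most clearly at day 7. Day 7 replicate 3 was the lowest of its day for 29 of the 32 genes, against 49% of all probe sets. Only C1qc, Itgam and Cd163 had another array lowest. The median deviation from the day mean on that array was -0.56 for the 32 genes and -0.07 over all probe sets. Its median log2 over all probe sets was also the lowest of its day, at 5.28 against 5.66 and 5.55 on replicates 1 and 2. The means of several marker lists of other cells were also lowest on that array, but not those of fibroblasts and mast cells. The class II and dendritic mean was 6.20 there, against 6.72 and 6.98 on replicates 1 and 2. The neutrophil mean was 4.42 against 4.90 and 5.07, the epithelial mean 5.52 against 5.99 and 6.08, and the endothelial mean 6.31 against 6.60 and 6.65. In contrast, the fibroblast mean was highest there, at 10.63 against 10.59 and 10.56, and the mast cell mean was 4.18 against 4.09 and 4.38. The median range over the day 7 arrays was log2 0.92 for the 32 genes, against 0.38 for all probe sets, and 0.40 and 0.45 at days 2 and 21. At day 21, replicate 3 was the highest for 30 of the 32 genes, against 35.4% of all probe sets, Csf1r and Adgre1 being highest on replicate 1. The fibroblast mean was lowest on that array, at 9.80 against 10.21 and 10.19. The part of these other markers in the shared movement was not tested. At that age replicate 2 was the lowest for 21 genes, against 25.1% of all probe sets. At day 2, replicate 1 was lowest for 19 genes, against 22.3% of all probe sets. The highest array was mixed, with replicates 2 and 3 each highest for 14, against 22.5% and 28.9%.

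**Figure D3:**
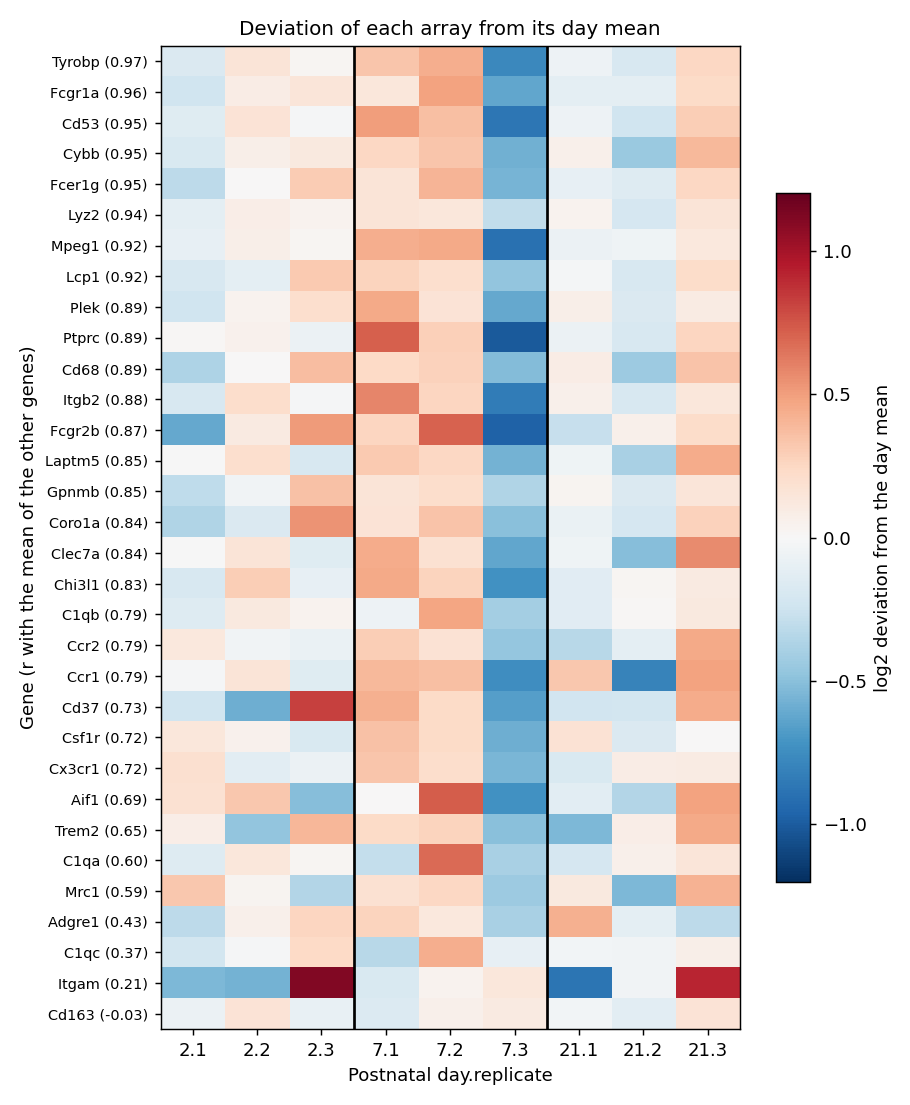
Deviation of each array (columns, day and replicate) from the mean of its day in log2 units, for the 32 genes (rows), ordered by the correlation in brackets. Day 7 replicate 3 is low in nearly all rows, day 21 replicate 3 is high in most, and the day 2 columns differ between genes.

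Each gene's deviations from its day means were correlated with the mean deviation of the other 31 genes over the 9 arrays, as a description without a test, since the genes share arrays and litters. Pearson's r was 0.7 or more for 24 genes, 0.3 to 0.7 for 6 and below 0.3 for 2, with a median of 0.84. Of all probe sets, 7.92% reached 0.7 with the mean of the 32 genes, and their median was 0.10. Spearman's rho also reached 0.7 for 24, with Aif1 and Trem2 in place of Csf1r and Cx3cr1. Tyrobp (r = 0.97), Fcgr1a (0.96), Cd53 (0.95), Cybb (0.95) and Fcer1g (0.95) followed the rest most closely.

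The correlations depended on the low array at day 7. Without day 7 replicate 3, 11 genes reached 0.7, and the median r was 0.59. These 11 were Tyrobp, Fcgr1a, Cd53, Cybb, Fcer1g, Lyz2, Mpeg1, Lcp1, Cd68, Gpnmb and Coro1a. Csf1r, Cx3cr1 and Adgre1 went from 0.72, 0.72 and 0.43 to -0.21, -0.17 and -0.14, and Chi3l1 from 0.83 to 0.25. In the other direction, Itgam went from 0.21 to 0.64, and Cd163 from -0.03 to 0.62. Both were near the low end of the array at day 7, where Itgam measured 4.43 on replicate 3.

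Some genes stood apart within a day on particular arrays, and others named here followed the order of many of the 32. On day 2 replicate 3, Itgam stood at 7.94 against 6.29 and 6.27, and Cd37 at 6.77 against 5.71 and 5.37. Coro1a, Fcgr2b and Cd68 were highest there too, as were 14 of the 32 genes in all. Mrc1 (9.65 against 10.33 and 10.04), Aif1 (7.72 against 8.41 and 8.55) and Csf1r (9.03 against 9.36 and 9.27) were among the 9 genes lowest on the same array. At day 7 the C1q chains were highest on replicate 2, with C1qa at 8.16 against 7.21 and 7.09. In all, 15 of the 32 genes were highest there. At day 21, Ccr1 was lowest on replicate 2, at 9.13 against 10.25 and 10.41. Clec7a, Cd68 and Mrc1 were lowest there as well, as were 21 of the 32 genes in all. Adgre1 stood apart at day 21, being lowest on replicate 3 (7.93, against 8.67 and 8.12), where 30 of the 32 genes were highest.

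Other genes of the myeloid programme, taken from lists that exclude the 32, moved on the same days. Of all probe sets, 3.44% were called lower and 5.5% higher at day 7 than at day 2. At day 21 against day 7, 11% were called higher and 19.1% lower. Some lists share genes: Pparg and Maf are also among the transcription factors, and Siglec5, Cd14 and Ms4a7 also among the surface genes, beside the alveolar or interstitial list. The dendritic and class II list shares Itgax with the surface genes, Irf8 and Batf3 with the transcription factors, and Flt3 with the CSF ligand and receptor axis. That axis also shares Csf2rb with the surface genes, Csf3r with the neutrophil list and Kit with the mast cell list. Of 16 genes of ITAM and Src-family signalling, 12 fell to day 7 and 15 rose to day 21. The largest falls were those of Pik3ap1 (-1.80), Rac2 (-1.75), Lyn (-1.67) and Fgr (-1.42). Of 13 phagocyte oxidase and lysosome genes, 5 fell and 11 rose, with the cathepsins Ctsz (-1.85, then 2.35) and Ctss (-1.44, then 1.58) among them. Of 31 other myeloid surface genes, 15 fell, 24 rose and 1 was lower at day 21 than at day 7. Of 20 myeloid transcription factors, 5 fell and 0 rose to day 7, and 11 rose and 1 fell to day 21. The largest falls were those of Tfec (-2.43, then a rise of 2.49), Mitf (-1.88, then 1.48) and Bhlhe41 (-1.81, then 1.31). Irf5 and Irf8, regulators of myeloid cells, rose by 1.56 and 1.49 to day 21.

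Of 10 genes of the CSF ligand and receptor axis, Csf2ra fell (-1.28) and Il34, a second ligand of the CSF1 receptor, rose (0.89) from day 2 to day 7. From day 7 to day 21, 7 of the 10 rose, led by Csf2ra (2.37) and its ligand Csf2 (1.54). Of 14 genes listed for alveolar macrophages, 11 fell and 1 rose to day 7, led by Spp1 (-4.01) and Fabp4 (-3.31), and 12 rose and 1 fell to day 21. Of 12 listed for interstitial macrophages, 1 fell (Cd14, -2.08) and 1 rose (Tmem119, 0.73) to day 7. These were 8.33% each, against 3.44% and 5.5% of all probe sets. To day 21, 6 rose (50%, against 11%) and 3 fell (25%, against 19.1%). Other cells of the lung also express some genes of these lists, and the difference between the lists was not tested.

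**Figure D4:**
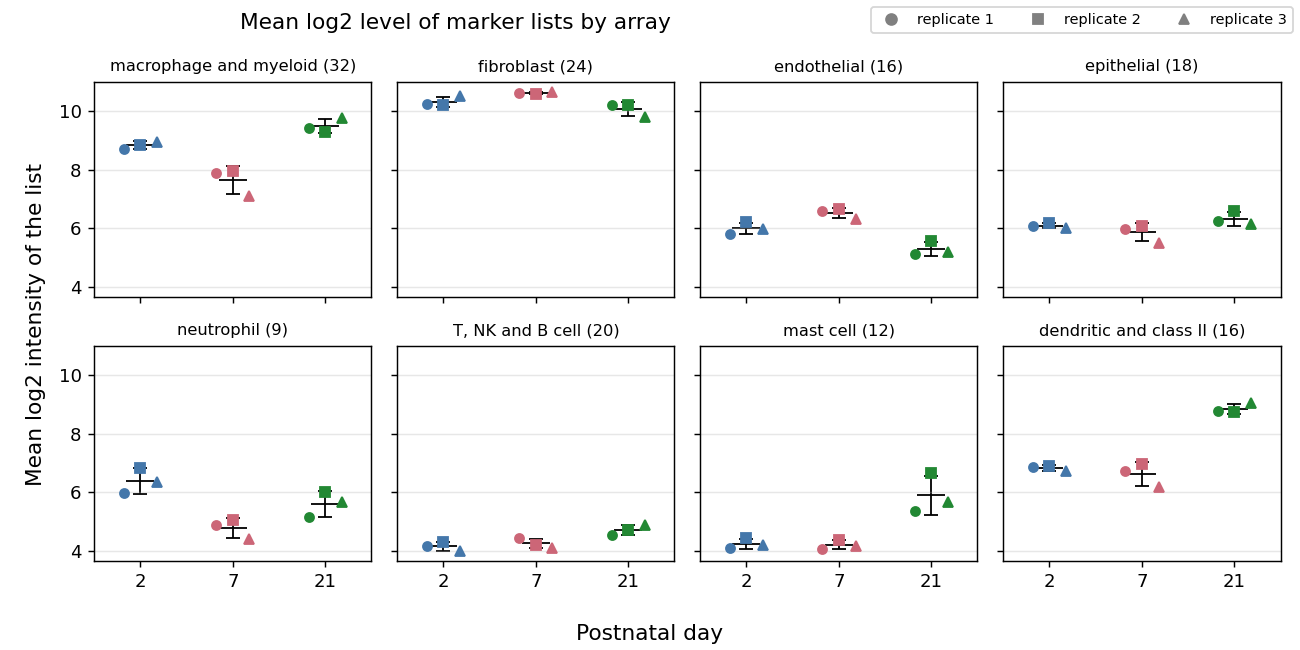
Mean log2 intensity (y axis) of 8 marker lists on each array by postnatal day, with the day mean ± SD (n = 3 arrays) and the number of genes in brackets. The macrophage and myeloid mean dips at day 7 and peaks at day 21. The fibroblast mean is highest at day 7 (10.56 to 10.63, against 9.80 to 10.50 on the other days). The mast cell and class II means rise only at day 21.

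Markers of other blood cells moved on some of the same days, and their part in the levels of shared genes such as Itgam, Ptprc and Coro1a was not tested. The mean of 9 neutrophil markers was 5.97 to 6.84 at day 2, 4.42 to 5.07 at day 7 and 5.15 to 6.02 at day 21. Of the 9, 5 fell to day 7 (55.6%, against 3.44% of all probe sets), led by S100a9 (-3.82) and S100a8 (-3.01). From day 2 to day 21, 3 neutrophil markers were lower (33.3%, against 12.2% of all probe sets) and 1 was higher (11.1%, against 6.82%). The mean of 20 T, NK and B cell markers was 4.01 to 4.30, 4.13 to 4.45 and 4.56 to 4.88, close to the low end, and limma called 0 of them at day 7 against day 2, where 1 was higher and 1 lower at an unadjusted p under 0.05. At day 21, 7 of the 20 were higher than at day 7 (35%, against 11% of all probe sets), led by Cd4 (1.73), which rat macrophages also express. Of 12 mast cell genes, 8 rose from day 7 to day 21 (66.7%), and of 16 dendritic cell and class II genes, 12 did (75%), against 11% of all probe sets. The endothelial list went the other way. Of its 16 genes, 4 were higher at day 7 than at day 2 (25%, against 5.5% of all probe sets). At day 21, 11 were lower than at day 7 (68.8%, against 19.1%). Of 18 epithelial markers, 1 fell to day 7 (5.56%, against 3.44% of all probe sets). To day 21, 6 of them rose (33.3%, against 11%) and 2 fell (11.1%, against 19.1%).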

How the data were processed

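Gene expression was measured on 9 arrays, 3 per day. The authors deposited intensity values per probe set on a linear scale. The submitters' processing notes name affy and RMA, and their versions are not given in these sources. Because RMA works in log2 units, log2 of the deposited values was analysed. Of 31099 probe sets, 57 controls were left out and 31042 tested with no filter on low values, so the 32 measured genes entered every test. In the annotation 20826 probe sets carried 1 symbol. A linear model with a mean per day was fitted to all 9 arrays in limma 3.58.1 (R 4.3.3) with moderated variances (6 residual and 5.69 prior degrees of freedom). Tests were two-sided, with Benjamini-Hochberg adjustment over all probe sets within each of 3 comparisons, which share arrays. The procedure was tested on simulated data. The p-values measure spread between pooled litters, and the number of arrays limits the precision. Figures used matplotlib 3.10.9 in Python 3.11.15. The genes, lists and motifs were chosen with earlier results of these data known. Any of the 32 genes, and from each further list up to 4 called genes with the largest change per comparison, could be named. Genes shared between lists were named as well, and the promoters printed were chosen after values were seen. Alternatives were a replicate block, quantile normalization, median centring, a filter on dim probe sets, trended robust variances, fits of the compared days alone, means over a gene's probe sets, and leaving out each array.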

Additional observations from a re-analysis of the deposited data

How the results depend on the processing

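Counts of called genes under alternatives that kept all arrays stayed within 1.5 times those reported. With the litter number as a replicate block the counts were 19 lower (day 7 against day 2), 28 higher (day 21 against day 7) and 11 higher (day 21 against day 2), against 20, 28 and 12, and the block ended only the calls of Mrc1 at day 7 (adjusted p = 0.0521) and of Lcp1 over day 2 (adjusted p = 0.0516). Same-numbered samples did not deviate together throughout (r of -0.24 to 0.41 over all probe sets), so the numbers were not taken as pairs. Between days 2 and 7, however, each of the 6 samples correlated best with its own number (r of 0.41, 0.077 and 0.22), which is a hint from the data, and the labels do not say whether a litter was sampled on more than 1 day. Leaving out each array in turn gave 13 to 20 lower, 28 to 29 higher and 6 to 16 higher in the same comparisons, and 11 to 26 genes at a within-day r of 0.7 or more. Over these omissions the following uncalled values changed sign. Between days 21 and 2, Gpnmb ran from -0.020 (without day 2 replicate 1) to 0.31, Cd163 from -0.16 to 0.0026 (without day 2 replicate 2), Fcgr2b from -0.52 to 0.040 (without day 2 replicate 3) and Ccr1 from -0.38 to 0.26 (without day 21 replicate 2). Itgam ran from -0.62 to 0.39 (without day 2 replicate 3, and 0.27 without day 21 replicate 1), Mrc1 from -0.012 to 0.47 and Clec7a from -0.036 to 0.50 (both lowest without day 21 replicate 3). Between days 7 and 2, Ccr2 ran from -0.22 to 0.16 (without day 7 replicate 3). The cause of the changed counts was not tested. Over all probe sets, 61.5% of calls between days 7 and 2 were higher, against 41.5% with arrays centred on their medians. Between days 21 and 7 this share was 36.6%, against 48% so centred, which moved the median of all probe sets from 0.02 to 0.13, and 48.5% after a further quantile normalization. In the last comparison, day 21 against day 2, it was 36% and 47.3% after that normalization. In each of these the genes called were lower at day 7 and higher at day 21, as reported. The number of arrays limits precision, and Ccr2, Cd163 and the day 7 level of Itgam are limited by signal near the low end. So is Cd37 on day 7 replicate 3.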
